A study of Mus musculus with 12 samples.

Results

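Tight junction genes were examined in tumours of 4T1, a mouse mammary carcinoma cell line that spreads from the implanted tumour by itself. The set comprised 9 named genes, which encode the claudins Cldn1, Cldn3, Cldn4 and Cldn7, occludin (Ocln), tricellulin (Marveld2), junctional adhesion molecule A (F11r) and the zonula occludens scaffolds Tjp1 and Tjp3. They were taken by symbol from the mRNA table, none of the 9 was at 0 in all libraries, and they stood among 22769 such genes. The stress group consisted of 3 tumour libraries from Balb/c mice restrained for 2 hours on each of 28 days, and the control group of 3 tumour libraries from untreated Balb/c mice. All tumours, in both groups, had grown from 4T1 cells and were removed 35 days after inoculation. The model has limits that hold for both groups: 4T1 is a single transplanted line, and a whole tumour also holds the cells of its host. The labels leave unsaid whether the libraries of a group came from different mice, so p-values measure the spread between these libraries. The series' title names an epithelial to mesenchymal transition (EMT), in which epithelial cells lose their contacts, and the comparison asks where the junction genes stood between stress and control.

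Tight junctions seal the gap between neighbouring epithelial cells near their apical side. Claudins and the MARVEL proteins occludin and tricellulin span the membrane and form the strands, and the zonula occludens scaffolds bind their tails and tie them to actin. In mammary epithelium these junctions close the milk space, and their loss is one of the textbook signs of an EMT.

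Each value is a normalised log2 value as the authors deposited it, and base 2 was assumed for the logarithm, since no source states it. How many reads stand behind a value is unknown, and values of weakly expressed genes vary little between libraries, so their differences may be understated. The tumour epithelium was visible in every library: its 6 markers, among them the keratins Krt8 and Krt18 and the adhesion proteins Cdh1 and Epcam, were all well above the lowest tested level. Their mean log2 value was 12.05, 11.80 and 12.02 in stress replicates 1 to 3, against 11.99, 12.04 and 11.85 in control replicates 1 to 3. The groups overlapped on this mean. One marker, the keratin Krt7, named after its values were seen, had log2 values of 12.15, 11.79 and 11.69 in stress libraries, against 12.41, 12.17 and 12.16 in control libraries. Its stress libraries all lay below its control libraries, the highest of them by little (difference -0.36, SE 0.13, limma adjusted p = 0.221).

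The 9 genes covered a wide range of levels. Genes can be compared with each other only per length, so the log2 length in kilobases of the longest coding transcript was subtracted, on the assumption that the deposited values had not been divided by length. On that scale Tjp1 stood at 9.53 in stress and 9.38 in control, Cldn4 at 9.40 in stress and 9.47 in control, and F11r at 9.18 in stress and 9.01 in control. Cldn4 was separated from neither of the others: Tjp1 was above Cldn4 in 3 of 6 libraries, and Cldn4 was above F11r in 4 of 6. Tjp1 was above F11r in 6 of 6. Below them the order was the same in 6 of 6 libraries, with Cldn3 (8.07 in stress, 8.17 in control), Cldn7 (7.09 in stress, 7.30 in control), Marveld2 (6.03 in stress, 6.10 in control), Ocln (5.68 in stress, 5.37 in control), Tjp3 (3.66 in stress, 3.58 in control) and Cldn1 (1.93 in stress, 1.95 in control). With the median transcript length in place of the longest, Ocln (6.41) stood above Marveld2 (6.27) in stress, while in control it stood below (Ocln 6.10, Marveld2 6.34). Cldn4 and Cldn3 were therefore the most abundant claudins of the set, and Cldn1, the claudin that seals the epidermis, was the least abundant member.

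**Figure D1:**
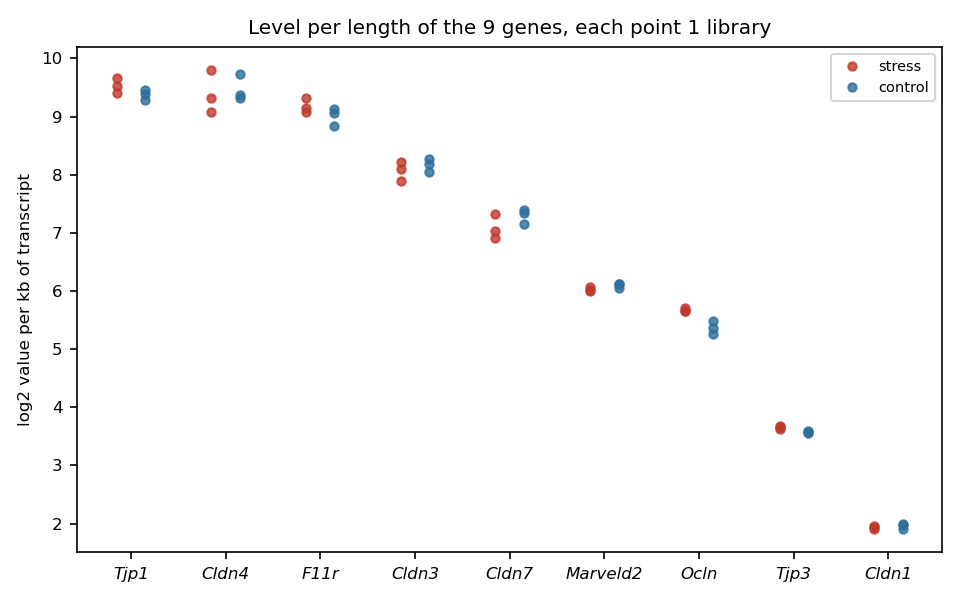
Level of each of the 9 genes as the log2 value per kilobase of its longest coding transcript (vertical axis), with stress libraries left and control libraries right for each gene and 1 point a library. Cldn4 overlaps with Tjp1 and with F11r at the top, and Cldn1 is lowest, at 1.93 in stress and 1.95 in control.

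Snail and ZEB repressors bind E-boxes with the letters CACCTG, searched for on both strands, and such E-boxes are known in promoters of claudin and occludin genes. They are shown because the repressors themselves were measured in these libraries. RefSeq promoters of GRCm38.p6 matched all 9 genes with 13 start sites, some of them overlapping. In the 250 bases before the start, the E-box occurred on either strand in 6 of 13 promoters, in 5 genes, and in 17.2% of the 32851 promoters of the whole table. The matches lay in Cldn4, Cldn7, F11r, Ocln and Tjp3. Those of Ocln and Cldn7, and that of Tjp3 at chr10:81291268-81291296, lie before inner start sites, within the gene spans given below. The promoters at the outer 5′ ends of Ocln and Cldn7 held 0 E-boxes. Each match is printed 5′ to 3′ on the strand of its gene, with the E-box in capitals.
Ocln, chr13:100552694-100552723, minus strand: ccatcggagtttCAGGTGaatgggtcaccg
Ocln, chr13:100552549-100552578, minus strand: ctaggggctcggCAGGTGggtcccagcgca
Cldn4, chr5:134946935-134946960, minus strand: ctttaactgcagCACCTGtggccgcc
Cldn7, chr11:69965312-69965341, plus strand: tttcttcctcttCACCTGgacgaggagggg
Cldn7, chr11:69965352-69965381, plus strand: agacttccggttCAGGTGagtgtcccttca
F11r, chr1:171437427-171437456, plus strand: agttcggggttgCACCTGcgtacggtgagt
Tjp3, chr10:81291672-81291701, minus strand: gtcacaaggggtCAGGTGtacagacaggga
Tjp3, chr10:81291268-81291296, minus strand: cacaaaccctccCACCTGcaggccggcct
The E-box of Cldn4 was nearest to its start site, with its first base 14 bases before it. The E-box of Ocln at chr13:100552694-100552723 was farthest from its start site, an inner one, at 213 bases. The GRHL site AACCNGTT, bound by activators of epithelial genes, was found in 0 of 13 promoters and in 1.79% of all, and the STAT site TTCNNNGAA in 1 of 13, that of Cldn7, and in 7.02% of all. No overlap between different motifs occurred in the promoters of the 9 genes. A match is a description of the letters and says nothing of binding in these tumours.

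The claudins had slightly lower means in stress than in control, and none passed the test. Cldn3 and Cldn4, neighbours on chromosome 5 and receptors of a bacterial enterotoxin, are claudins of simple epithelia. Cldn3 (ENSMUSG00000070473, chr5:134986214-134987472 of GRCm38, plus strand, 1 exon) had log2 values of 8.42, 8.22 and 8.55 in stress libraries, against 8.60, 8.38 and 8.52 in control libraries. The groups overlapped, with stress replicate 2 the lowest of all. The difference was -0.10 (SE 0.10, 0.932-fold, limma adjusted p = 0.623 over all genes tested), with a 95% interval of -0.34 to 0.13. Single libraries moved it, to -0.015 when stress replicate 2 was left out and -0.18 when stress replicate 3 was, and to -0.052 and -0.16 when control replicates 1 and 2 were. An antisense gene, Wbscr25, overlaps Cldn3. Of the short sequence words of Cldn3, 1.22% also occurred in transcripts of Wbscr25 or Cldn4. Without a stated strand setting, reads from the sequence shared with Wbscr25 cannot be told apart.

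Cldn4 (ENSMUSG00000047501, chr5:134945119-134946934, minus strand, 1 exon) was the most variable member. It had log2 values of 10.66, 9.93 and 10.17 in stress libraries, against 10.59, 10.18 and 10.23 in control libraries. The highest and the lowest of all 6 values were both stress libraries, and replicate 1 was highest in each group. The difference of -0.08 (SE 0.19, 0.947-fold, limma adjusted p = 0.869) had a 95% interval of -0.54 to 0.38. Its sign rested on single libraries: it was 0.083 without stress replicate 2 and 0.051 without control replicate 1.

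Cldn7 (ENSMUSG00000018569, chr11:69964779-69967885, plus strand), a claudin that also lies along the lateral membrane and binds Epcam, had the largest negative difference of the set. Its log2 values were 7.75, 7.45 and 7.33 in stress libraries, against 7.81, 7.58 and 7.76 in control libraries. Stress replicates 2 and 3 lay below every control library and stress replicate 1 lay among them. The difference of -0.21 (SE 0.12, 0.868-fold) had a 95% interval of -0.48 to 0.07 and a limma adjusted p of 0.411. Leaving out stress replicate 1 made it -0.32, and leaving out stress replicate 3 made it -0.12. Cldn1 (ENSMUSG00000022512, chr16:26356642-26371841, minus strand) had log2 values of 3.60, 3.64 and 3.66 in stress libraries, against 3.60, 3.69 and 3.67 in control libraries. It lay below the mean log2 value of 4 required for testing and the groups overlapped. Tested without that filter, its difference was -0.02 (limma adjusted p = 0.799).

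**Figure D2:**
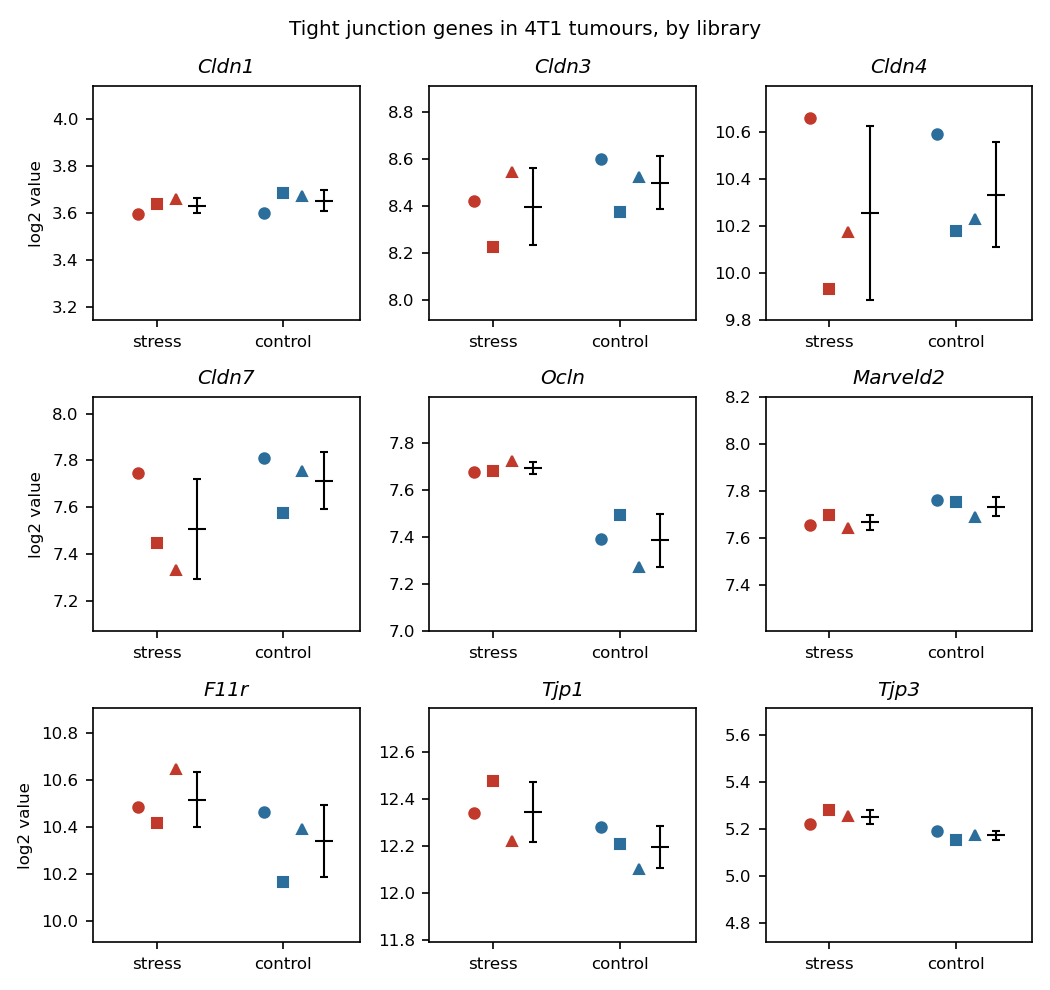
Deposited log2 values of the 9 genes in each library (vertical axis, which spans 1 log2 unit in every panel), with stress left and control right; circles, squares and triangles are replicates 1, 2 and 3, and bars give the mean ± SD (n = 3). Ocln and Tjp3 are the genes whose stress libraries all lie above the control libraries.

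Occludin showed the clearest separation among the members, although it did not pass the threshold over all genes. Ocln (ENSMUSG00000021638, chr13:100496507-100552718, minus strand) had log2 values of 7.68, 7.68 and 7.72 in stress libraries, against 7.39, 7.50 and 7.27 in control libraries. All 3 stress libraries lay above all 3 control libraries, and the stress libraries were close together, with means of 7.69 ± 0.027 in stress and 7.39 ± 0.11 in control (SD, n = 3 each). The difference of 0.31 (SE 0.074, 1.24-fold, 95% interval 0.13 to 0.48) had an unadjusted limma p of 0.00385 and an adjusted p of 0.135. Of all genes tested, 2.43% had a larger positive difference, and 5.85% had a larger difference in either direction. An exact two-sided permutation test gave p = 0.1, the smallest that 3 against 3 libraries allow.

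Tricellulin, a MARVEL protein like occludin that gathers where the corners of neighbouring cells meet, did not share that separation. Marveld2 (ENSMUSG00000021636) is encoded next to Ocln (chr13:100595957-100616971, minus strand). Its log2 values were 7.66, 7.70 and 7.64 in stress libraries, against 7.76, 7.75 and 7.69 in control libraries. The groups overlapped by 1 library each, as stress replicate 2 lay just above control replicate 3. The difference was -0.07 (SE 0.058, 0.954-fold, limma adjusted p = 0.577; 95% interval -0.20 to 0.07), and -0.034 after quantile normalization. Within each library, the Ocln value minus the Marveld2 value was 0.02, -0.02 and 0.08 in stress replicates 1 to 3, against -0.37, -0.25 and -0.42 in control replicates 1 to 3. These values, from which length was not subtracted, were nearly equal in the stress libraries, while Ocln had the lower value in each control library. They do not rank the genes by level. Per kilobase of the longest coding transcript, Marveld2 was above Ocln in 6 of 6 libraries, on average by 0.35 in stress and 0.73 in control. With the median length, Ocln stood above Marveld2 in stress, as given above. The pair was set side by side for the family the proteins share, with the values known, and was not tested. Marveld2 varied little over the libraries (range 0.12), so the pair largely restates the separation of Ocln.

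Junctional adhesion molecule A is an immunoglobulin-like adhesion protein of epithelial, endothelial and blood cells that recruits polarity proteins to young contacts. F11r (ENSMUSG00000038235, chr1:171437535-171464603, plus strand) had log2 values of 10.48, 10.42 and 10.65 in stress libraries, against 10.46, 10.17 and 10.39 in control libraries. The stress values were mostly higher, but control replicate 1 lay above stress replicate 2. The difference of 0.18 (SE 0.094, 1.13-fold, limma adjusted p = 0.372) had a 95% interval of -0.04 to 0.40. It was 0.09 without control replicate 2, its lowest library.

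The scaffolds Tjp1 and Tjp3 (zonula occludens proteins) bind claudin tails through PDZ domains. Tjp1 (ENSMUSG00000030516, chr7:65296165-65527781, minus strand) had log2 values of 12.34, 12.48 and 12.22 in stress libraries, against 12.28, 12.21 and 12.10 in control libraries. The groups overlapped, since stress replicate 3 lay below control replicate 1. The difference was 0.15 (SE 0.079, 1.11-fold, limma adjusted p = 0.375; 95% interval -0.04 to 0.34), and it was 0.083 without stress replicate 2. Tjp3 (ENSMUSG00000034917, chr10:81273207-81291581, minus strand), a scaffold largely confined to epithelia, had log2 values of 5.22, 5.28 and 5.26 in stress libraries, against 5.19, 5.15 and 5.17 in control libraries. All stress libraries lay above all control libraries, by a small distance. The difference of 0.08 (SE 0.045, 1.06-fold, 95% interval -0.03 to 0.18) had a limma adjusted p of 0.397 and an exact permutation p of 0.1, and it was 0.12 after quantile normalization. Apba3 overlaps Tjp3 on the opposite strand. Of the short sequence words of Tjp3, 0.268% also occurred in transcripts of Apba3, so reads from that shared sequence may contribute.

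Of the 9 genes, 8 were tested and 0 passed a limma adjusted p of 0.05 in either direction; over all 14098 genes tested, 0.0213% were called higher in stress and 0.0142% lower. At an unadjusted p under 0.05, 1 of the 8 tested genes was higher (Ocln) and 0 were lower, beside 8.26% of all genes tested higher and 9.15% lower. All stress libraries lay above all control libraries for 2 of the 8 (Ocln and Tjp3), beside 12.1% of all genes tested, and below them for 0, beside 12.3%. With so few members, neither share stands clear of its background. The differences of 4 genes were positive and of 4 negative: Cldn3, Cldn4, Cldn7 and Marveld2 were negative, and Ocln, F11r, Tjp1 and Tjp3 positive. Their median was 0.006, beside 0.001 over all genes tested, and with Cldn1 it was -0.02. The mean log2 value of the 8 genes was 8.78, 8.64 and 8.69 in stress replicates 1 to 3, against 8.76, 8.61 and 8.64 in control replicates 1 to 3. The groups overlapped on this mean. The widest interval belonged to Cldn4, whose lower bound leaves room for a 0.689-fold level in stress.

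**Figure D3:**
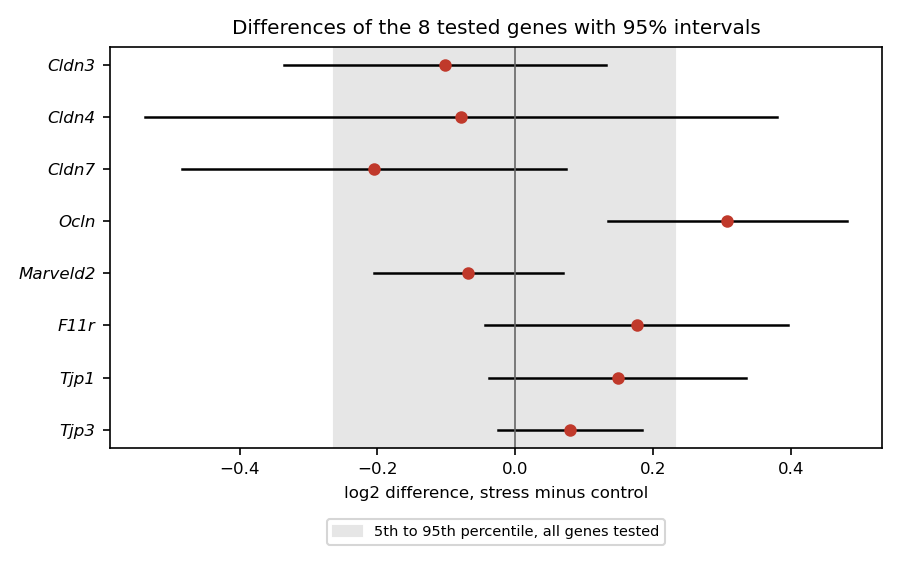
Log2 difference, stress minus control, of the 8 tested genes (points) with 95% limma intervals (lines); the grey band spans the 5th to the 95th percentile of all genes tested, -0.26 to 0.23. Only the interval of Ocln, 0.13 to 0.48, lies wholly on one side of 0.

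In whole tumours, fewer cells of a type and less RNA per cell cannot be told apart, so the levels of markers of other cells are given beside the junction genes. No tested marker of any cell type list passed a limma adjusted p of 0.05. All 12 endothelial markers had negative differences, 8 of them at an unadjusted limma p under 0.05. The summed level of the list, its values added as powers of 2, was 7860 to 8910 in stress, against 9220 to 10600 in control. None of the 12 was listed at 0. Of 8 tested neutrophil markers 7 had positive differences, and the summed level of the 9 with values was 2310 to 3760 in stress, against 1660 to 1860 in control. Endothelial cells and leukocytes can express F11r and Tjp1, and the part of these cells in the values of both genes was not tested. Of the 9 fibroblast markers 8 had negative differences (71100 to 98900 in stress, 89500 to 192000 in control), as did 10 of 10 skeletal muscle markers (3090 to 9640 in stress, 7750 to 19900 in control). For adipocytes, 2 of 6 markers could be tested, both with negative differences, and the summed level of all 6 was 394 to 525 in stress, against 554 to 908 in control. On the mean log2 value of these 6 the groups overlapped, as stress replicate 1 (4.61) lay above control replicate 1 (4.59).

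Markers of other epithelia were mostly weak, apart from Krt14 and Sbsn, and the groups overlapped on their summed levels. Among 12 keratinocyte and skin markers, Krt1, Dsg1a and Krtdap were listed at 0 and 5 more lay below the filter; the summed level of the 9 with values was 614 to 849 in stress, against 685 to 1040 in control. Krt14, a basal keratin named after its values were seen, made up much of it, at 9.15 ± 0.29 in stress and 9.36 ± 0.34 in control on the log2 scale (SD, n = 3 each). Of 6 markers of normal secretory mammary epithelium, Wap was listed at 0 and 4 were below the filter, with summed levels of 47.5 to 61.1 in stress and 53.4 to 57.5 in control. Summed levels of macrophage markers overlapped (18200 to 25900 in stress, 21500 to 22300 in control, 7 of 7 with values), as did those of platelet markers (310 to 483 in stress, 340 to 406 in control, 6 of 6 with values) and of Schwann cell and nerve markers (1290 to 1430 in stress, 1230 to 1480 in control, 7 of 7 with values). On none of these lists did the groups separate by summed level. The macrophage marker Cd68, named after its values were seen, did separate (difference 0.22, SE 0.052, limma adjusted p = 0.131). It had log2 values of 10.80, 10.83 and 10.83 in stress libraries, against 10.57, 10.68 and 10.56 in control libraries. Of the 7 macrophage markers 5 had negative differences and 2, Cd68 among them, positive.

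**Figure D4:**
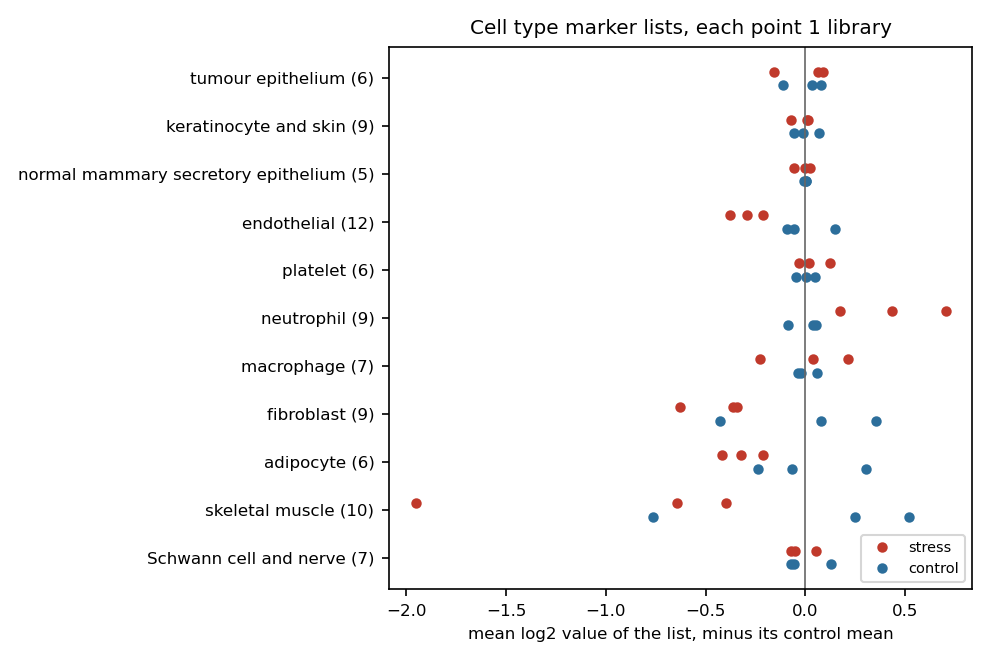
Mean log2 value of each cell type marker list minus its mean over the control libraries (horizontal axis), with stress points above control points and 1 point a library; the number of markers with values is in brackets. The tumour epithelium list overlaps between the groups, the endothelial list is lower in each stress library, and the neutrophil list is higher.

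The other claudins were mostly weak in these tumours. Of 27 further claudin and claudin-domain genes, 8 were tested, 9 had values below the filter, 9 were listed at 0 and 1 had no matching row. None of the 8 was called in either direction, with 3 positive and 5 negative differences and a median of -0.04, and the groups overlapped for each. Cldn2, a claudin that forms a cation channel in leaky epithelia, had log2 values of 7.27, 6.81 and 6.18 in stress libraries, against 6.44, 6.36 and 5.96 in control libraries. Its difference of 0.50 (SE 0.27, limma adjusted p = 0.387) was the largest of the list, and control replicates 1 and 2 lay above stress replicate 3. Cldnd1 was next by p, at 9.81 ± 0.070 in stress and 9.90 ± 0.042 in control (limma adjusted p = 0.471).

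Other membrane proteins of the junction divided by direction without any call. Of 12 genes 8 were tested, 3 with positive and 5 with negative differences, and the median was -0.13. Cxadr, the coxsackievirus and adenovirus receptor of epithelial junctions, had log2 values of 11.51, 11.50 and 11.39 in stress libraries, against 11.35, 11.17 and 11.10 in control libraries. Every stress library exceeded every control library, with a difference of 0.26 (SE 0.074, limma adjusted p = 0.165). Ildr2, of the angulin family that recruits tricellulin to cell corners, had log2 values of 5.50, 5.53 and 5.35 in stress libraries, against 5.64, 5.94 and 5.73 in control libraries. Every stress library of Ildr2 was below every control library (difference -0.31, SE 0.090, limma adjusted p = 0.168). Lsr, another angulin, named after its values were seen, stood at 10.49 in stress and in control (difference 0.0005, SE 0.045, limma adjusted p = 0.997). The endothelial adhesion gene Esam and the adhesion molecules Jam2 and Jam3, named after their values were seen, had differences of -0.28, -0.26 and -0.20, with limma adjusted p of 0.244, 0.352 and 0.189. Esam also stands in the endothelial marker list above, and the part of endothelial cells in these values was not tested.

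The other scaffolds and polarity proteins were all measurable, and 0 of 20 were called, with 11 positive and 9 negative differences and a median of 0.02. Magi1, a membrane-associated scaffold, stood at 10.84, 10.80 and 10.89 in stress libraries, against 10.74, 10.63 and 10.54 in control libraries. Its groups did not overlap, and the difference was 0.20 (SE 0.063, limma adjusted p = 0.186). Ybx3, the mouse counterpart of the factor ZONAB that binds the scaffold Tjp1, stood at 11.53, 11.47 and 11.56 in stress libraries, against 11.68, 11.67 and 11.64 in control libraries, without overlap (difference -0.14, SE 0.046, limma adjusted p = 0.203).

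Among the 6 partners and proteases of claudins, 0 were called, 4 differences were positive and 2 negative, and the median was 0.09. Prss8 (prostasin), a membrane serine protease of epithelia, had log2 values of 7.83, 7.78 and 7.71 in stress libraries, against 7.63, 7.47 and 7.38 in control libraries. Spint1, an inhibitor of matriptase and related proteases, had 9.99, 9.85 and 10.04 in stress libraries, against 9.82, 9.66 and 9.81 in control libraries. Neither gene overlapped between the groups, with differences of 0.28 (SE 0.081, limma adjusted p = 0.166) for Prss8 and 0.20 (SE 0.073, limma adjusted p = 0.241) for Spint1.

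Of the 11 activators of epithelial genes 7 were tested and 0 called, with 5 positive and 2 negative differences and a median of 0.12. Ehf, an epithelial ETS factor, stood at 5.13 ± 0.053 in stress and 4.99 ± 0.056 in control, without overlap (difference 0.14, SE 0.052, limma adjusted p = 0.240). Ovol1, a zinc finger factor that favours the epithelial state, stood at 4.26 ± 0.054 in stress and 4.13 ± 0.072 in control, with overlap (SD, n = 3 each; limma adjusted p = 0.274). Of the 6 repressors (Snail, ZEB and Twist factors), 0 were called, 3 differences were positive and 3 negative, and the median was -0.03. Zeb1 had log2 values of 8.42, 8.67 and 8.32 in stress libraries, against 9.34, 9.25 and 8.83 in control libraries. All stress libraries lay below all control libraries, and the difference of -0.67 (SE 0.15, limma adjusted p = 0.120) was the widest of these lists, without passing the threshold. Snai2 overlapped, at 5.70 ± 0.046 in stress and 5.81 ± 0.14 in control (SD, n = 3 each; limma adjusted p = 0.481). Zeb2 and Snai1, named after their values were seen, also overlapped. Zeb2 stood at 11.35 ± 0.058 in stress and 11.26 ± 0.096 in control (difference 0.08, limma adjusted p = 0.530). Snai1 stood at 9.52 ± 0.14 in stress and 9.67 ± 0.17 in control (difference -0.15, limma adjusted p = 0.484). Zeb1 is also expressed by stromal cells, whose fibroblast markers also had negative differences, and their part in its value was not tested. Beside the Snail and ZEB factors, the genes with the E-box printed above had differences of both signs: Ocln, Tjp3 and F11r positive, Cldn4 and Cldn7 negative. None of these genes was called, the sign of Cldn4 rested on single libraries, and a link to Zeb1 or the other Snail and ZEB factors was not tested.

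The 12 genes of junction contractility and its kinases had 0 calls, 8 positive and 4 negative differences and a median of 0.05. The kinase gene Yes1 stood at 10.24 ± 0.074 in stress and 10.14 ± 0.016 in control without overlap (limma adjusted p = 0.368). Rock2, which drives actomyosin tension at junctions, stood at 12.19 ± 0.026 in stress and 12.10 ± 0.085 in control with overlap (SD, n = 3 each; limma adjusted p = 0.434).

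**Figure D5:**
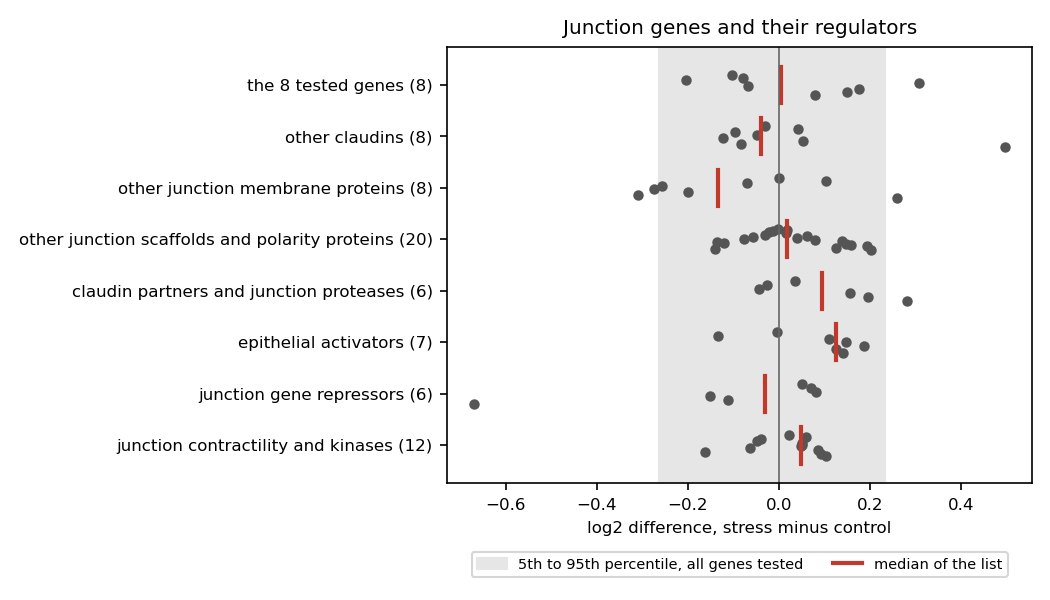
Log2 difference, stress minus control, of each tested gene (points) in the set and in 7 related lists, with the number tested in brackets; the red line is the median of each list and the grey band the 5th to 95th percentile of all genes tested. Zeb1 lies farthest to the left, at -0.67, and Cldn2 farthest to the right, at 0.50.

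For each member the tested gene with the nearest pattern was found from values centred on their own mean over the 6 libraries, by the root mean square difference in log2 units. It was Lrp5, a Wnt co-receptor, for Ocln (0.024), Brix1 for Marveld2 (0.0088), Klhl2 for Tjp1 (0.024), Phf21a for Tjp3 (0.0086) and CT025619.2 for F11r (0.022). Among the claudins it was Bod1 for Cldn3 (0.028), Igsf9 for Cldn7 (0.026), Slc12a3 for Cldn4 (0.068) and Mrps27 for Cldn1 (0.0079). No member was nearest to another member. With 8 tested members among 14098 genes tested, that was likely in advance and says nothing of a shared pattern. The small distances of Cldn1, Marveld2 and Tjp3 came with small ranges over the libraries, 0.089, 0.12 and 0.13 log2 units, so that many genes of little spread would lie close to them. Cldn4, with the widest range at 0.73, had the most distant nearest gene.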

How the data were processed

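RNA of 4T1 tumours, in 3 stress and 3 control libraries, was sequenced as paired reads on the Illumina platform, per the labels' protocols. Per the submitters' processing notes, bcl2fastq, kallisto 0.46.1 and mm10 were used; no source used here states how the estimates became the deposited log2 values. The authors deposited fractional log2 values between -1.97 and 17.85. Of 35453 rows, 12658 were listed at 0 in every library and 26 bore a date in place of a symbol; both were left out. The miRNA libraries were not analysed here.

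limma 3.58.1 (lmFit, eBayes with trend and robust estimation, R 4.3.3) was fitted, without covariates, to the 14098 genes whose log2 values averaged at least 4, and two-sided p-values were adjusted by the method of Benjamini and Hochberg over all of them, with a threshold of 0.05. The fit was tested on simulated data. Single values also had an exact permutation test, which cannot go below p = 0.1. Intervals cover 95%. Marker lists were summed as powers of 2. Coordinates and transcript lengths are those of GENCODE on GRCm38, the assembly of mm10, and promoters those of RefSeq on GRCm38.p6. Up to 1.22% of a member's 31-base words also occurred in transcripts of other genes.

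The members and lists were chosen with earlier results of these data known. All 9 members are described. From each other junction or regulator list the called genes, or else the 2 with the smallest p, are named, and for each member the gene with the nearest pattern; marker lists are given by their sums, and genes named outside the rule are marked where they appear, apart from the examples of epithelial markers. Alternatives covered filters, scalings, variance models, a replicate block, leaving out each library and another transcript length.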

Additional observations from a re-analysis of the deposited data

How the results depend on the processing

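No member was called under any of the alternatives run, and the adjusted p of Ocln ranged from 0.119 to 0.619, with differences of 0.25 to 0.36. All alternatives kept the sign of each tested member except Cldn4, whose difference was 0.083 without stress replicate 2 and 0.051 without control replicate 1, in a range of -0.28 to 0.083 when single libraries were left out. The median difference of the members was -0.068 with the stricter filter (mean of at least 6), which drops Tjp3, and -0.0053 to 0.074 when single libraries were left out. Counts over all genes moved more. The genes called lower numbered 7 with the stricter filter and 5 after quantile normalization. With epithelial centring 96 were higher and 120 lower, without a variance trend or robust estimation 1 and 1, and without moderation 0 and 0; the cause was not tested. Leaving out single libraries gave 0 to 4 higher and 0 to 2 lower. Deviations of same-numbered libraries had weak correlations across genes (-0.079, 0.082 and -0.018 for numbers 1 to 3). Those of differently numbered libraries ran from -0.136 to 0.155. With 3 libraries a group, such correlations cannot decide whether the numbers mark pairs. With a replicate block 0 genes were called higher and 0 lower, and Ocln had a limma adjusted p of 0.207. The depth behind the values is unknown, and small differences of weak genes such as Cldn1 may be understated. Genes with a mean of 3 to 4, as Cldn1, had a median range of 0.12 over the libraries. Those with a mean of 5 to 6, as Tjp3, had 0.26, as had genes at 9 to 10.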
